A study of Mus musculus with 912 samples.

Results

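CA1 pyramidal nuclei that stained for FOS protein 1 h after a mouse had explored a new environment (NE) were compared with CA1 nuclei of the same mice that did not. Nuclei were taken when the authors' label gave 1 h after NE and predicted type CA1, and when at least 4000 genes exceeded a log2(TPM+1) of 1, TPM being the transcript level scaled to gene length and library size. Of 912 nuclei in the series, 65 met this rule, 33 FOS+ and 32 FOS-. Both groups came from the same 3 female C57BL6 mice, which explored an unfamiliar large cage for 15 min and then spent 1 h in the home cage. Mouse 2 (8.7 weeks old) gave 24 FOS+ and 21 FOS- nuclei, mouse 4 (9 weeks) gave 4 and 5, and mouse 10 (8.85 weeks) gave 5 and 6. The home cage level came from 35 FOS- CA1 nuclei of 3 unexposed females of the same strain and ages, HC mice 3, 4 and 8, with 27, 4 and 4 nuclei. HC mouse 4 and the 1 h mouse 4 share a date and a number in the labels but differ in exposure, and they were taken as separate animals, which the labels do not settle. No transgene or injected agent is named for these groups, and FOS state rests on the antibody gate alone.

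When a hippocampal neuron fires, calcium entry activates kinases that act on CREB and on the cofactors of SRF, and immediate early genes (IEGs) are transcribed within minutes without new protein synthesis. Their products include transcription factors of the FOS, EGR and NR4A families, proteins that remodel or modulate synapses such as ARC, HOMER1A and BDNF, and phosphatases and adaptors that damp the kinases again. CA1 pyramidal cells carry the output of the hippocampus, and a fraction of them becomes active in any one environment. RNA of nuclei, as measured here, is weighted towards recently made transcripts.

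The 33 FOS+ nuclei held a median of 1330660 counts (596009 to 2584145) and the 32 FOS- nuclei a median of 1317240 (343713 to 2182368). The FOS- nuclei of mouse 10 were the shallowest set, with a median of 475200. Reads carry no molecular identifiers, and intervals given for shares of nuclei cover counting error alone. Nuclei of mouse 2 were sorted as PROX1- CTIP2+, those of mice 4 and 10 as PROX1- CTIP2-, on separate dates, so gate, date and mouse cannot be told apart. The paper assigns the first gate to putative CA1 neurons, and the second to a population with CA3, CA2 and interneurons. Within mouse 2 the FOS+ nuclei filled plate columns 9 to 12 and the FOS- nuclei columns 5 to 8, and plate position and FOS state cannot be told apart there.

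The CA1 label was checked against markers of hippocampal fields. Over 8 CA1 markers the mean log2(TPM+1) was 3.08, 1.43 and 1.51 in the FOS+ nuclei of mice 2, 4 and 10, and 3.78, 1.74 and 3.46 in their FOS- nuclei. It was lower in FOS+ than in FOS- nuclei within each of the 3 mice. For a list of 8 CA3 and CA2 markers the means were 0.49, 2.18 and 1.22 (FOS+) and 0.58, 1.19 and 0.58 (FOS-). In mouse 4 the FOS+ nuclei thus had a higher mean over the CA3 and CA2 list than over the CA1 list, but the members were mixed. Of the CA3 and CA2 markers, Cpne4 was at 4.47, Grik4 at 4.35, Bok at 3.90, Amigo2 at 3.06 and Iyd at 1.63, while Coch, Rgs14 and Map3k15 were at 0. Of the CA1 markers, Dkk3 was at 8.03, the highest of the 16, and Man1a at 1.70, while the other 6 were under 1, Mpped1 at 0.58 and Wfs1 at 0.26 among them. Nuclei whose CA3 and CA2 mean exceeded their CA1 mean numbered 5 of 33 in FOS+, 3 of them among the 4 nuclei of mouse 4, and 2 of 32 in FOS-. These values go partly against the label of the mouse 4 nuclei, so counts of separated genes are also given without it. Over 5 glutamatergic markers the values were 5.57, 6.83 and 5.48 against 6.58, 6.24 and 5.34.

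**Figure D1:**
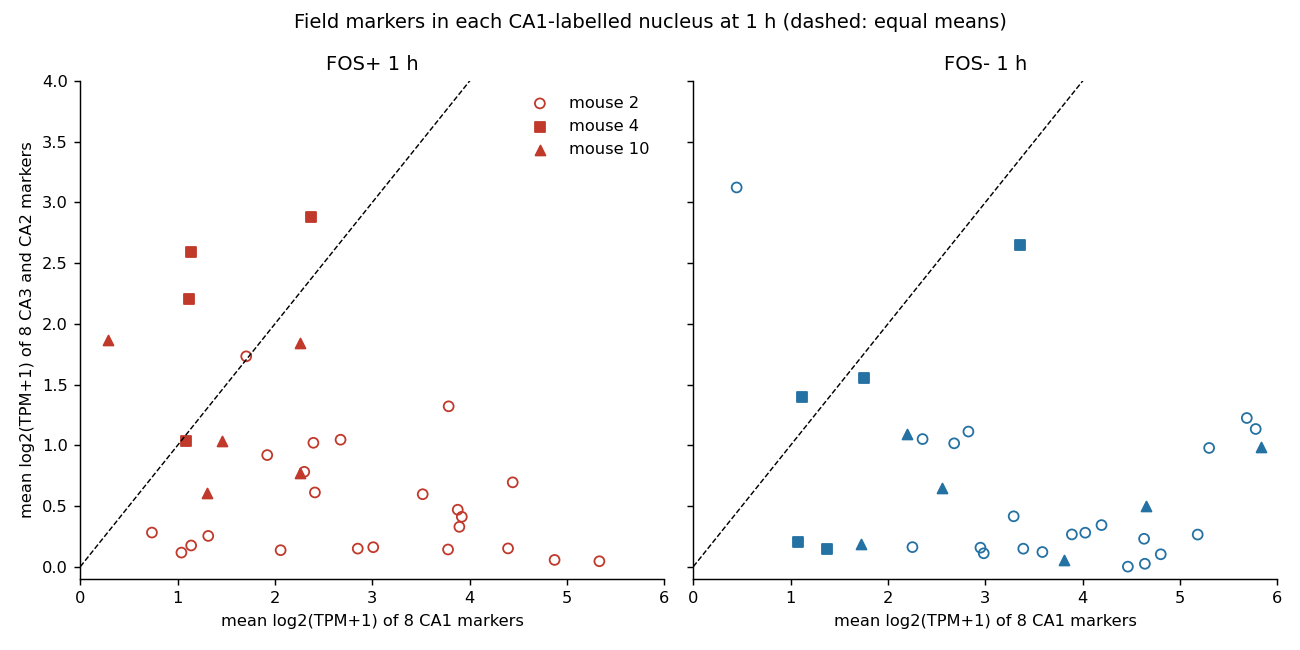
Field markers in each CA1-labelled nucleus at 1 h, with the mean log2(TPM+1) of 8 CA1 markers on the horizontal axis and of 8 CA3 and CA2 markers on the vertical axis; the left panel holds FOS+ and the right FOS- nuclei, symbols are mice, and the dashed line marks equal means. Most nuclei lie under the line, while 3 of the 4 FOS+ nuclei of mouse 4 lie above it. Beyond the end of the horizontal axis, and so not shown, is 1 FOS+ nucleus of mouse 2 with a CA1 mean of 6.48.

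Markers of other cell types were partly absent. Prox1 of granule cells, Vip of interneurons, Aldh1l1 of astrocytes, C1qa and Tmem119 of microglia, and Cldn5 and Cdh5 of endothelium were at 0 in all 65 nuclei. The mean over 10 interneuron markers was 0.55 to 0.77 in FOS+ and 0.58 to 0.76 in FOS- nuclei of the 3 mice, and over 6 oligodendrocyte markers 1.02 to 1.60 and 1.01 to 1.45. Other markers were present. Slc1a2, a glutamate transporter of astrocytes, averaged 1.79, 5.81 and 1.66 in FOS+ against 1.15, 1.79 and 0.95 in FOS- nuclei, higher within each mouse with overlap. The rest of the astrocyte list did not follow it. Slc1a3 averaged 1.13, 1.45 and 2.26 against 1.84, 2.70 and 1.17, and Gja1 was at 0 against 0.37, 0.09 and 0. Over all 6 astrocyte markers the mean was 0.54, 1.21 and 0.70 against 0.68, 0.76 and 0.57. Sst, a peptide of interneurons, reached 5.39 and 4.13 in the FOS+ and FOS- nuclei of mouse 4, and Stxbp6, on the granule cell list, exceeded 1 in 28 of 33 and 23 of 32 nuclei. Mag, a myelin protein of oligodendrocytes, averaged 2.81, 3.11 and 3.19 against 2.5, 2.16 and 2.37 without overlap. The part of these markers in the results was not tested.

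One question of the design is whether FOS- nuclei with high Arc belong in the baseline. Arc encodes a synaptic protein whose transcript is itself induced by activity. It exceeded a log2(TPM+1) of 2.5 in 11 of the 32 FOS- nuclei, 8 of 21 in mouse 2, 0 of 5 in mouse 4 and 3 of 6 in mouse 10, and in 16 of the 35 HC nuclei. The study left such nuclei out, which uses a readout of the comparison, so all FOS- nuclei were kept here and results without the 11 are given beside.

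Tests were made over mice, not nuclei. The counts of all nuclei of a mouse and group were added up, and edgeR's quasi-likelihood method was run on these sums. HC sums were in the same fit, and Benjamini-Hochberg adjustment was over all genes. The fit had no term for the mouse, so the pairing of FOS+ and FOS- sums by mouse was not used. An alternative with the mouse as block is given near the end. edgeR called 0 of 14990 genes between FOS+ and FOS- at an adjusted p of 0.05. At an unadjusted p under 0.05 there were 309 higher (2.06%) and 344 lower genes (2.29%). Without the Arc-high FOS- nuclei it called 0 of 14507, with 390 higher (2.69%) and 239 lower (1.65%) unadjusted. Limma on mouse means called 0 of 13600 (730 unadjusted, 5.37%), while DESeq2 called 222 (1.48%), 100 higher (0.667%) and 122 lower (0.814%). Of the 222, 143 had mice without overlap, and 76 had counts in at most 3 of the 6 sums. Counts were also simulated with 1 spread, about that of the fit, for all genes and all sums. On these, DESeq2 and limma weighted by nuclei called more unchanged than changed genes, and edgeR called none of the changed ones. The simulated spread did not depend on the number of nuclei per sum, so the simulation cannot judge weights by nuclei. As edgeR called 0 genes, no gene is said to have changed, and genes are described by their values in each mouse.

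For that description, a gene was counted as separated when its mean log2(TPM+1) in all 3 FOS+ sets lay above, or below, that in all 3 FOS- sets. Separation is no test, and a two-sided exact permutation test of 3 against 3 mice cannot go below p = 0.1. Of 14157 genes with TPM values, 788 (5.57%) were separated as higher and 716 (5.06%) as lower in FOS+ nuclei. Leaving out the Arc-high FOS- nuclei gave 749 (5.29%) and 716 (5.06%), of which 550 and 470 were shared. The median edgeR log2 fold change over all genes was -0.02.

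Of 30 IEG transcription factors listed, 23 passed the filter on low counts. Their median log2 fold change was 2.51 (3.03 without Arc-high nuclei), 14 were separated as higher (60.9%, against 5.57% of all genes) and 0 as lower. Without the Arc-high nuclei 13 were separated, and without mouse 4 there were 14 in 2 against 2 mice, where 18.9% of all genes were higher and 14% lower. The other 7 did not pass that filter, and Fosl1, Atf3 and Maff had no counts in either group. A gene that passed because FOS+ counts alone were high had to differ, so these counts describe the list and do not test it.

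Fos itself, the transcript of the protein sorted on, had mouse means of 3.52, 2.26 and 1.60 in FOS+ and 0.15, 0 and 0.91 in FOS- nuclei (mice 2, 4 and 10, here and below). The groups did not overlap, although HC nuclei reached 1.29, 2.21 and 1.62. Fos was counted in 17 of 33 FOS+ nuclei (51.5%, exact 95% binomial interval 33.5 to 69.2%) and in 4 of 32 FOS- nuclei (12.5%, 3.51 to 29.0%). Hence 16 nuclei with FOS protein showed no Fos count. Its log2 fold change was 5.71 (standard error 1.95), which moved to 10.64 without Arc-high nuclei and to 11.00 without mouse 10, whose FOS- nuclei held 22 of the 25 FOS- counts.

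Nr4a2, an orphan nuclear receptor, reached 6.21, 6.55 and 5.69 in FOS+ and 1.82, 0.53 and 2.18 in FOS- nuclei. All 3 FOS+ means lay above every FOS- mean and above the HC means of 2.63, 2.94 and 2.04. It was counted in 32 of 33 FOS+ nuclei against 18 of 32, with a log2 fold change of 3.92 (standard error 1.30, edgeR adjusted p = 1.00). Its relative Nr4a3 averaged 6.44, 6.64 and 5.04 against 2.91, 2.65 and 1.20, and Nr4a1 6.21, 5.27 and 4.22 against 2.33, 0.11 and 2.85. The whole NR4A family was thus separated, though the Nr4a1 fold change went from 1.52 (standard error 1.81) to 5.34 without Arc-high nuclei.

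Among AP-1 genes, Junb averaged 5.93, 5.52 and 4.56 in FOS+ and 2.52, 0.14 and 1.44 in FOS- nuclei, and Fosl2 2.25, 2.79 and 3.47 against 0.30, 1.38 and 1.02. Both were separated. HC mouse 4 held Junb at 6.21, above all FOS+ means. Jun averaged 0.51, 0.07 and 1.31 against 0.57, 1.70 and 0.88, with overlap. Fosb had 1395 counts in FOS+ nuclei of mice 2 and 10 and none in FOS- nuclei, and it did not pass the filter.

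In the EGR family of zinc finger factors, Egr2 averaged 1.86, 0.57 and 1.67 against 0.38, 0 and 0, and Egr4 3.68, 1.51 and 2.38 against 0.73, 0 and 0. Egr3 was listed at 0 in all 32 FOS- nuclei and had 85 counts in 4 of 33 FOS+ nuclei. The FOS+ share was 12.1% (exact binomial interval 3.40 to 28.2%), and 0 of 32 FOS- nuclei allows a share of up to 10.9%. These intervals overlap, so the shares of nuclei do not set the groups apart for Egr3. Egr1, counted in 30 of 33 FOS+ and 20 of 32 FOS- nuclei, averaged 6.76, 7.32 and 3.53 against 4.68, 0.23 and 0.86. In HC nuclei Egr1 was counted in 32 of 35, a share like that of FOS+ nuclei. Its groups overlapped, because the FOS- mean of mouse 2 lay above the FOS+ mean of mouse 10, and without mouse 2 its log2 fold change went from 2.80 to 7.21.

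Csrnp1, a nuclear protein of the cysteine-serine-rich family, had 801 counts in 11 of 33 FOS+ nuclei and 0 in all 32 FOS- nuclei. The FOS+ share was 33.3% (exact binomial interval 18.0 to 51.8%), and 0 of 32 FOS- nuclei allows a share of up to 10.9%. The Csrnp1 means were 0.98, 1.32 and 1.56 against 0, 0 and 0. Npas4, a neuronal factor induced by calcium, averaged 1.50, 3.12 and 1.36 against 0.64, 0 and 0.53, in 12 of 33 and 5 of 32 nuclei. HC nuclei held Npas4 in 14 of 35, no smaller a share than FOS+ nuclei. Bhlhe40, Klf6, Klf10, Myc and Ier5 on the same list had overlapping mice, and Bhlhe40 was lower in FOS+ within each mouse (2.48, 0 and 0.57 against 3.05, 3.08 and 0.97).

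**Figure D2:**
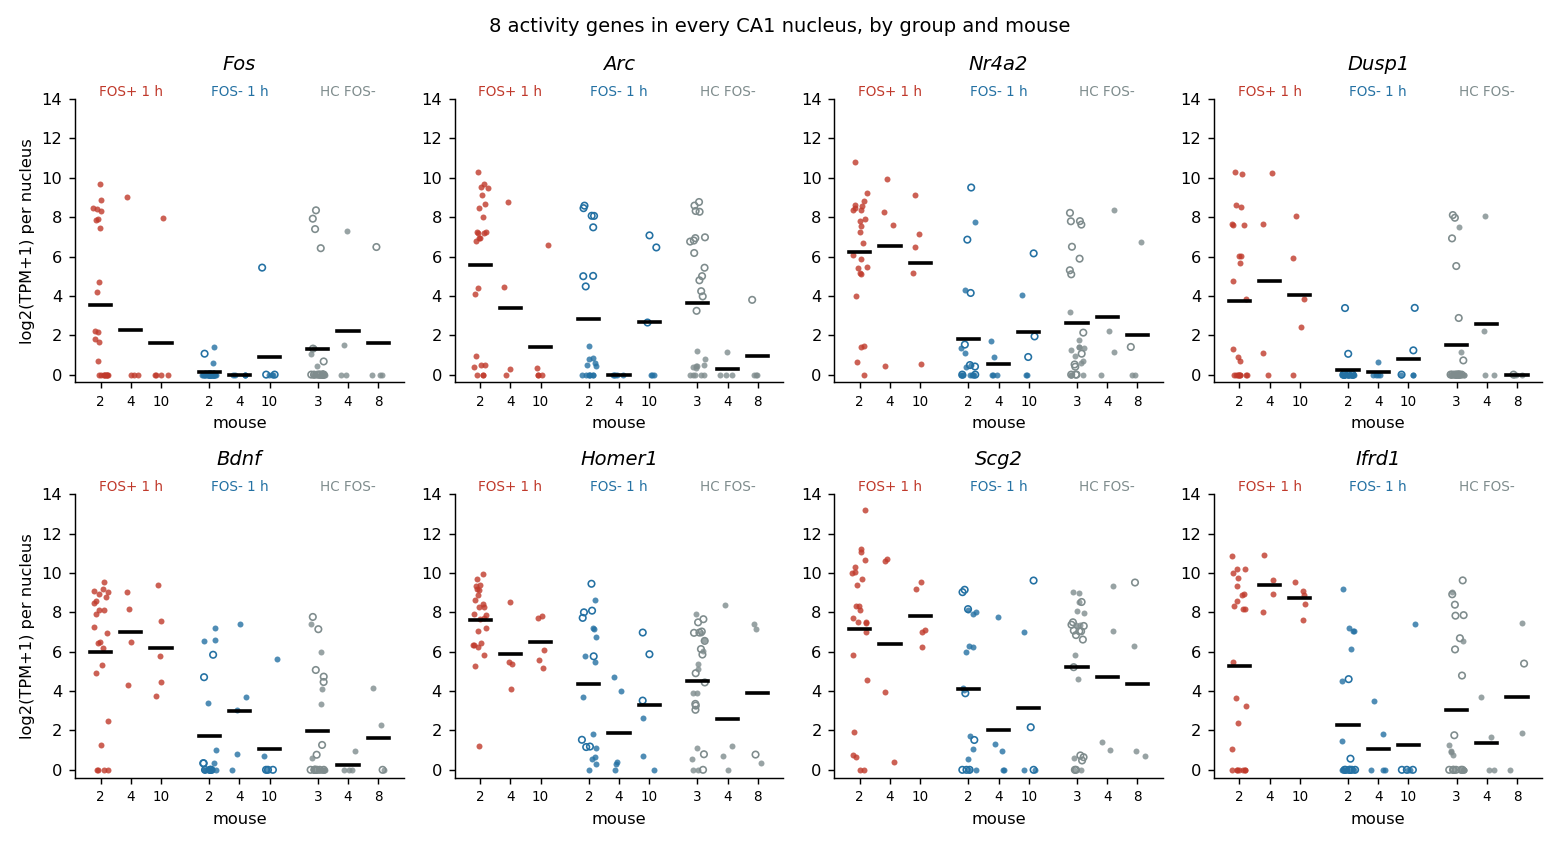
Log2(TPM+1) of 8 activity genes in each CA1 nucleus, in columns by mouse for FOS+ 1 h, FOS- 1 h and HC FOS- nuclei; bars are mouse means and open circles are FOS- nuclei with Arc above 2.5. Fos and Dusp1 are at 0 in most FOS- nuclei and in part of the FOS+ nuclei, while Nr4a2, Homer1, Bdnf and Scg2 are well above 0 in most FOS+ nuclei.

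The synaptic and secreted effectors gave the largest share. Of 30 listed, 29 were tested, all 29 had a fold change above 0, the median was 2.10 (2.20 without Arc-high nuclei), and 18 were separated as higher (62.1%) and 0 as lower. The count was 18 without Arc-high nuclei and 21 (72.4%) without mouse 4, where 18.9% of all genes were higher. It was 22 (75.9%) without mouse 2 and 24 (82.8%) without mouse 10, beside 16.0% and 13.5% of all genes. On CPM of the sums it was 15 (51.7%), beside 5.04%. Within mice 2, 4 and 10 the median difference of mean log2(TPM+1) over the list was 2.27, 2.97 and 1.79, against 0, -0.09 and 0.13 over all genes.

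Scg2, a secretogranin of dense-core vesicles, averaged 7.14, 6.40 and 7.81 in FOS+ and 4.09, 2.00 and 3.13 in FOS- nuclei. The groups did not overlap, and HC nuclei lay between them at 5.21, 4.71 and 4.36. Its log2 fold change was 3.09 (standard error 0.69, edgeR adjusted p = 1.00), resting on a total of 75460 counts against 6782. Vgf, another granin-like precursor, averaged 3.68, 3.04 and 4.39 against 1.59, 1.03 and 1.10, and Pcsk1, a convertase that cleaves such precursors, 4.46, 3.97 and 2.62 against 0.53, 1.50 and 1.52.

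Bdnf, the neurotrophin, averaged 5.97, 7.01 and 6.18 against 1.73, 2.98 and 1.05. The groups were far apart, and HC nuclei had 1.95, 0.24 and 1.60, within the FOS- range or below it. It was counted in 29 of 33 FOS+ and 16 of 32 FOS- nuclei, with a log2 fold change of 3.73 (standard error 1.26). Inhba, a subunit of activin, averaged 1.34, 2.48 and 5.67 against 0.85, 0 and 1.64 and overlapped.

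At the synapse, Homer1, whose short form uncouples the postsynaptic scaffold, was counted in 33 of 33 FOS+ nuclei and 29 of 32 FOS- nuclei. Its means were 7.59, 5.88 and 6.47 against 4.38, 1.88 and 3.28, and it exceeded 1 in 33 of 33 and 23 of 32 nuclei, with medians of 7.69 and 5.77 among those. Both the share of nuclei above 1 and the level in them were thus higher in FOS+ nuclei. The gene counts do not separate the short from the long form. Arc averaged 5.57, 3.38 and 1.39 against 2.85, 0 and 2.70. Its mice overlapped, since in mouse 10 the FOS- mean was above the FOS+ mean, and it was counted in 26 of 33 and 17 of 32 nuclei. Its log2 fold change of 2.13 (standard error 2.23) became 10.20 without the Arc-high FOS- nuclei, a value that the filter on Arc sets. Nrn1 averaged 4.44, 7.93 and 7.23 against 2.89, 3.75 and 1.64, and Nptx2, a pentraxin of excitatory synapses, 3.13, 1.79 and 1.63 against 1.25, 0 and 0.

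Ifrd1, a transcriptional coregulator, averaged 5.30, 9.38 and 8.71 against 2.28, 1.07 and 1.24. Mice 4 and 10 lay far above mouse 2 among FOS+ nuclei, and all 3 lay above FOS- and HC nuclei. Its log2 fold change was 5.08 (standard error 1.20), on 11781 and 531 counts. The antisense gene model Gm7008 overlaps its start, and reads of the 2 cannot be told apart in libraries without strand. Slc2a3, the neuronal glucose transporter, averaged 6.67, 7.24 and 6.68 against 1.66, 4.16 and 3.94, and Slc6a17, a vesicular amino acid transporter, 6.32, 6.74 and 5.99 against 1.47, 4.57 and 4.28. Rheb, the GTPase that activates mTORC1, averaged 6.12, 6.79 and 6.87 against 3.43, 2.54 and 4.22. These transporters and Rheb were separated, Slc6a17 only with all FOS- nuclei kept.

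**Figure D3:**
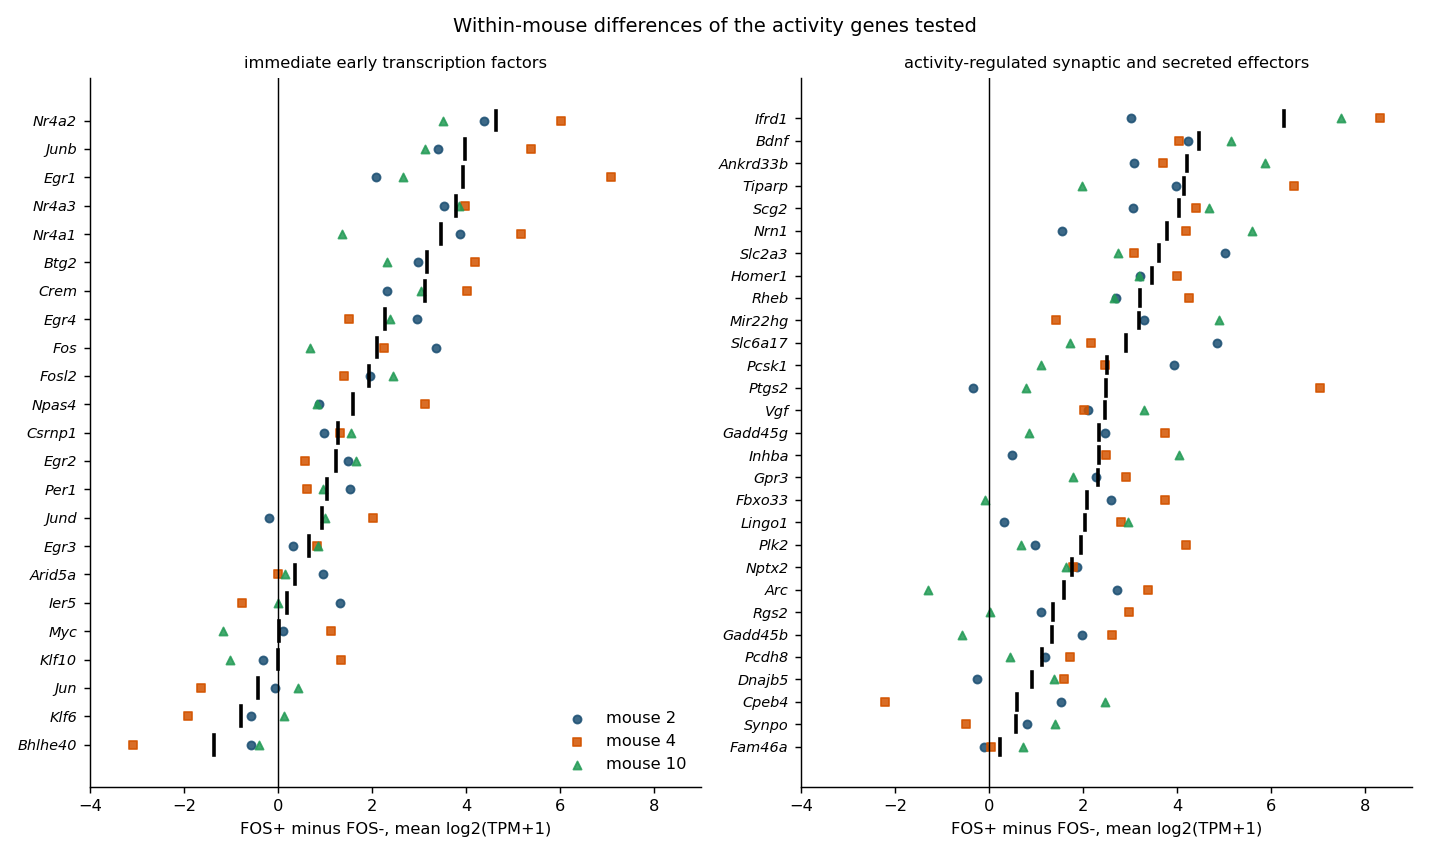
FOS+ minus FOS- difference of mean log2(TPM+1) within mouse 2, 4 and 10 for 23 IEG transcription factors (left) and 29 effectors (right), ordered by the mean difference, which is the vertical tick. Nr4a2, Bdnf, Scg2 and Homer1 are above 3 in all 3 mice, while Bhlhe40 is below 0 in all 3.

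The IEG promoters were read for the sites of the factors that drive these genes. The windows were the 250 bases before the RefSeq start (GRCm38.p6), and both strands were searched for the CRE TGACGTCA bound by CREB, its partial site TGACG, the EGR site GCGNGGGCG, the AP-1 site TGANTCA, the NR4A site AAAGGTCA and the CArG box of SRF. A CRE holds a partial site on each strand, so the 2 counts overlap. Sequences are shown for 4 genes that stood out in FOS+ nuclei, 5′ to 3′ on the gene's strand, with CRE, partial sites and the EGR site in capitals; CGTCA is the partial site on the other strand. Of the Dusp1 window, the 47 bases next to the start lie in an annotated exon and are left out, so 203 bases are shown and positions still count from the start.
Fos (chr12:85473640-85473889, plus strand): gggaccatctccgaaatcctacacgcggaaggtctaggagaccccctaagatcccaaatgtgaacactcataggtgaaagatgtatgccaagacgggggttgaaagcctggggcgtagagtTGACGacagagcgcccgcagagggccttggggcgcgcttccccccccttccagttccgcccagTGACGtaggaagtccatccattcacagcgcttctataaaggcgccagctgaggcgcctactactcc
Nr4a2 (chr2:57124004-57124253, minus strand): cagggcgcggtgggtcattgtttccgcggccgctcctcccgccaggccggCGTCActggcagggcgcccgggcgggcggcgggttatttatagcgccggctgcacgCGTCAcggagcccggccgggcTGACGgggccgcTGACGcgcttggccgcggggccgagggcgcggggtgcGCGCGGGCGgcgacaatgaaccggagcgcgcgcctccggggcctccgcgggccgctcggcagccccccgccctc
Homer1 (chr13:93303507-93303756, plus strand): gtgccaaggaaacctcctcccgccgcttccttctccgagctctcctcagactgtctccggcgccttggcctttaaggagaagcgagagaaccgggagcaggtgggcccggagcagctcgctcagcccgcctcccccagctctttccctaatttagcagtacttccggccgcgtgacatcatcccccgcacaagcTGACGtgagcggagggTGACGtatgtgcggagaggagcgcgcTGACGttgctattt
Dusp1 (chr17:26508520-26508722, minus strand): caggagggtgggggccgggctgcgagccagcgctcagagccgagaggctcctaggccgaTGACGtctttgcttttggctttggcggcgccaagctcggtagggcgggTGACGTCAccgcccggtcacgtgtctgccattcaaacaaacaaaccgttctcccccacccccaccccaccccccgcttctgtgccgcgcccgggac

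Fos held partial sites from -129 to -125 and from -66 to -62 of its start, Nr4a2 4 partial sites and an EGR site from -74 to -66, and Homer1 3 partial sites within the last 56 bases. Dusp1 held a full CRE from -143 to -136 and a further partial site, and Scg2, not printed, a full CRE from -68 to -61. The partial site was in 71.9% of 32 promoters of 22 listed IEG transcription factors and in 45.5% of 33 promoters of 22 effectors, against 26.4% of the promoters of all genes tested and 17.8% of all 32851 promoters. Within both activity lists it was in 65.1% of 43 promoters of separated genes and 26.7% of 15 promoters of the others (4 promoters, 2 genes). Over the other 8 lists its share ran from 3.03% for potassium channels to 43.8% for chaperones. The EGR site was in 25% of IEG factor and 9.09% of effector promoters, and in 29.0% for genes upstream of the IEGs. All genes tested had 8.43%. The full CRE had 6.25% and 9.09% (all tested 2.70%) and AP-1 3.13% and 9.09% (4.42%). NR4A had 0% and 0% (0.84%), and the CArG box 12.5%, all of 1 gene, and 0% (1.23%). Promoters of one gene are not independent, and a match describes these letters only.

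Genes that restrain kinase signalling were higher in part. Of 23 listed, 20 were tested, with a median log2 fold change of 1.24. Separated as higher were 5 (25%) and as lower 0, beside 5.57% and 5.06% of all genes. Without Arc-high nuclei 5 were higher and 1 lower. Without mouse 4 there were 8 higher (40%) and 2 lower (10%), beside 18.9% and 14% of all genes. Without mouse 2 there were 7 (35%) and 1 (5%), beside 16.0% and 15.2%. Without mouse 10 there were 7 (35%) and 2 (10%), beside 13.5% and 18.5%. Dusp1, a phosphatase of MAP kinases, averaged 3.74, 4.75 and 4.04 in FOS+ and 0.21, 0.12 and 0.77 in FOS- nuclei. FOS- means stayed under 1 in all 3 mice, and HC nuclei had 1.51, 2.57 and 0. Its 13168 FOS+ counts came from 22 nuclei and its 19 FOS- counts from 5. The log2 fold change of 8.80 (standard error 2.11, edgeR adjusted p = 1.00) was 12.40 without Arc-high nuclei. Spry2, an inhibitor of receptor tyrosine kinase signalling, averaged 5.76, 5.35 and 6.55 against 2.04, 0.81 and 3.08, in 31 of 33 and 14 of 32 nuclei. Errfi1, an inhibitor of the EGF receptor, averaged 4.09, 6.15 and 2.81 against 1.57, 0.09 and 0.

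The RGS proteins Rgs4 and Rgs7, which shorten G protein signals, were also separated, at 5.23, 3.34 and 5.52 against 3.06, 2.70 and 2.20 for Rgs4. Dusp6, selective for ERK, averaged 3.63, 6.53 and 4.79 against 1.96, 0 and 3.94 and overlapped through mouse 10. Spry4 had 452 counts in 5 FOS+ nuclei and none in FOS- nuclei, but was at 0 in FOS+ nuclei of mouse 10. It was also counted in 6 of 35 HC nuclei.

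Of 26 chromatin and DNA modifying enzymes, 7 were separated as higher (26.9%) and 0 as lower, with a median of 0.62 (1.05 without Arc-high nuclei). On CPM of the sums, where 5.04% of all genes were separated as higher and 4.77% as lower, only 2 were, so this count depends on the scale. Without Arc-high nuclei 7 were higher and 1 lower. Without mouse 4 there were 11 higher (42.3%) and 0 lower, beside 18.9% and 14% of all genes. Without mouse 2 there were 10 (38.5%) and 2 (7.69%), beside 16.0% and 15.2%. Without mouse 10 there were 12 (46.2%) and 3 (11.5%), beside 13.5% and 18.5%. Kdm6b, a demethylase of H3K27, averaged 4.65, 3.56 and 3.80 against 2.62, 1.32 and 2.14, and was counted in 33 of 33 and 29 of 32 nuclei. Kdm7a averaged 4.36, 4.80 and 4.81 against 2.98, 2.96 and 2.18. Arid5b, a DNA-binding cofactor, averaged 3.71, 1.96 and 4.58 against 1.13, 1.17 and 1.01, in 27 of 33 and 10 of 32 nuclei. Dnmt1, Hdac4 and Hdac5 were separated too, Hdac5 only with all FOS- nuclei kept. Jmjd1c was higher within each mouse (7.68, 8.82 and 6.98 against 5.36, 7.16 and 4.78) with overlap. Kdm6a, the X-linked relative of Kdm6b, went the other way within each mouse, at 1.92, 0.86 and 2.02 against 1.98, 3.01 and 4.75.

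**Figure D4:**
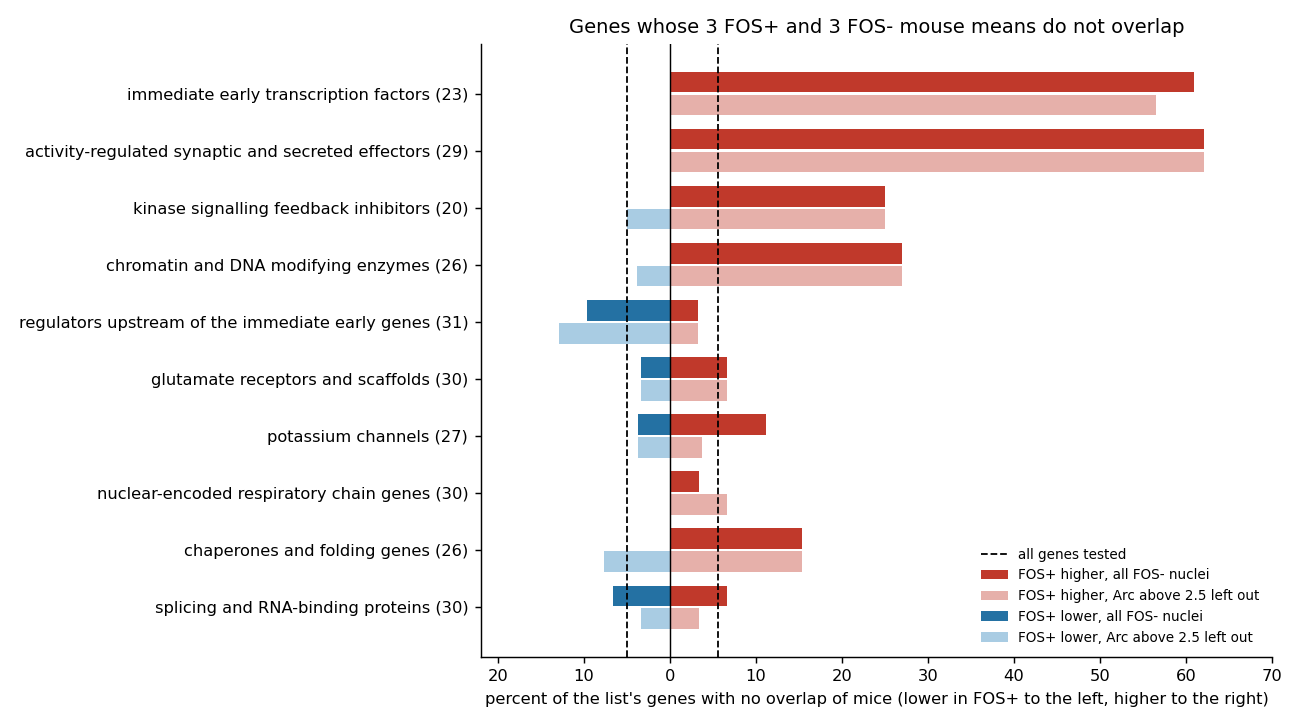
Percent of tested genes of each list whose 3 FOS+ and 3 FOS- mouse means do not overlap, higher in FOS+ to the right and lower to the left; paler bars leave out FOS- nuclei with Arc above 2.5, and dashed lines are the shares over all genes (5.57% higher, 5.06% lower). The 2 activity lists reach 60.9% and 62.1%, and the 6 lists at the bottom lie between 3.23% and 15.4% on the higher side.

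The genes upstream of the IEGs, such as CREB, SRF and MEF2 factors, their cofactors and the kinases and channels that activate them, showed no common direction. The median of the 31 tested was 0.07. Separated as higher was 1 (3.23%) and as lower 3 (9.68%), beside 5.57% and 5.06% of all genes. The counts were 1 and 4 without Arc-high nuclei. They were 5 (16.1%) and 7 (22.6%) without mouse 4, beside 18.9% and 14% of all genes. Without mouse 2 they were 3 (9.68%) and 5 (16.1%), beside 16.0% and 15.2%. Without mouse 10 they were 3 (9.68%) and 9 (29.0%), beside 13.5% and 18.5%. The CREB coactivator Crtc3 was lower, at 3.07, 1.85 and 3.06 against 3.18, 5.10 and 3.92, and Cacna1d and Camk2a were the other 2. Mapk3 had a log2 fold change of -4.90 that was -1.06 without mouse 4.

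Glutamate receptors and scaffolds (30 tested) had a median of -0.03. Separated as higher were 2 (6.67%) and as lower 1 (3.33%), beside 5.57% and 5.06% of all genes. The 2 counts were the same without Arc-high nuclei. Without mouse 4 there were 12 higher (40%) and 3 lower (10%), beside 18.9% and 14% of all genes. Without mouse 2 there were 6 (20%) and 5 (16.7%), beside 16.0% and 15.2%. Without mouse 10 there were 4 (13.3%) and 5 (16.7%), beside 13.5% and 18.5%, so the larger higher count depends on leaving out mouse 4. Grip1, a scaffold of AMPA receptors, averaged 2.07, 3.86 and 4.77 against 0.21, 0.25 and 0.25. FOS- nuclei of all 3 mice stayed near 0, and Grip1 was counted in 21 of 33 and 7 of 32 nuclei, with a log2 fold change of 7.22 (standard error 1.92). Grm5, the metabotropic receptor mGluR5, was lower at 6.91, 5.00 and 7.04 against 7.70, 7.89 and 8.05, in nearly every nucleus of both groups, with a log2 fold change of -0.72 (standard error 0.42).

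Potassium channels (27 tested) had a median of 0.32 and 3 genes separated as higher (11.1%, beside 5.57% of all genes). Kcnk1 and Kcnc1 were among them, and neither was separated without Arc-high nuclei. Kcnh3 was the 1 lower (3.70%, beside 5.06% of all genes). Respiratory chain genes (30) had a median of 0.23 and 1 separated as higher (3.33%), Cox5a. Splicing and RNA-binding genes (30) had a median of 0.15 and 2 separated each way (6.67%). These shares lie near those of all genes. Without mouse 4 the higher and lower counts were 6 and 4 for potassium channels, 6 and 2 for respiratory chain genes and 9 and 5 for splicing genes. The higher shares were 22.2%, 20% and 30%, and the lower ones 14.8%, 6.67% and 16.7%, beside 18.9% and 14% of all genes. Without mouse 2 the higher shares were 18.5%, 10% and 16.7%, and the lower ones 7.41%, 10% and 23.3%. All genes had 16.0% and 15.2% there. Without mouse 10 the higher shares were 22.2%, 13.3% and 20%, and the lower ones 7.41%, 10% and 13.3%. All genes then had 13.5% and 18.5%. Among the splicing genes, Hnrnpu averaged 7.57, 7.93 and 7.74 against 4.97, 3.56 and 6.76.

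Of 26 chaperones and folding genes, 4 were separated as higher (15.4%) and 0 as lower, beside 5.57% and 5.06% of all genes. The median was 0.19. Hsp90aa1, a cytosolic chaperone, averaged 9.97, 10.46 and 9.96 against 8.98, 9.41 and 8.43, and its cofactor Hsph1 4.92, 7.29 and 5.68 against 2.91, 4.08 and 1.47. Pdia4 and Dnajc3, of the endoplasmic reticulum, were the other 2. Without Arc-high nuclei the list had 4 higher and 2 lower. Without mouse 4 it had 12 higher (46.2%) and 3 lower (11.5%), beside 18.9% and 14% of all genes. Without mouse 2 it had 6 (23.1%) and 2 (7.69%), beside 16.0% and 15.2%. Without mouse 10 it had 7 (26.9%) and 2 (7.69%), beside 13.5% and 18.5%.

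Outside the lists, the gene with the smallest edgeR p among separated genes was Pam, the enzyme that amidates neuropeptides in secretory vesicles. It averaged 8.16, 8.53 and 8.37 in FOS+ and 7.17, 7.39 and 7.02 in FOS- nuclei. The 3 mice of each group lay close together, HC nuclei had 7.15, 7.16 and 7.76, and every one of the 65 nuclei held counts. Its log2 fold change was 2.18 (standard error 0.36), 2.29 without Arc-high nuclei, and 2.14 to 2.27 without any 1 mouse. It did not pass edgeR (adjusted p = 1.00), and DESeq2 gave an adjusted p of 3.9e-10.

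The other 7 genes that the naming rule put highest were Fzr1, Arhgap25, Zscan21, Tmtc2, Snord15b, Acot8 and Kcnk1. They had counts in only 3 to 8 of 33 FOS+ nuclei, against 0 to 6 of 32 FOS- nuclei. In HC nuclei they ran from 0 of 35 (Snord15b) to 14 of 35 (Kcnk1, against 7 of 33 FOS+ nuclei). Those on the lower side included Clybl, Rph3al, Aspdh, Zp3r, Pck2, Dlx1as and D3Ertd751e. They had counts in 3 to 12 of 32 FOS- nuclei and 0 to 7 of 33 FOS+ nuclei. Clybl, a mitochondrial lyase, had 940 counts in 7 FOS- nuclei and 0 in FOS+ nuclei. These differences rest on few nuclei, and Aspdh and Dlx1as, an antisense gene, were not separated without the Arc-high nuclei.

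Nuclei were also described one at a time, by how many of the 60 listed activity genes exceeded a log2(TPM+1) of 1. FOS+ nuclei held 19 to 38 such genes (median 32), with mouse medians of 32.5, 36 and 30. FOS- nuclei held 11 to 32 (median 17), with mouse medians of 17, 16 and 16.5, and HC nuclei 14 to 33 (median 20). All 33 FOS+ nuclei lay above the FOS- median, 16 lay above the highest FOS- nucleus, and 1 FOS- nucleus reached the FOS+ median. The 11 Arc-high FOS- nuclei held 13 to 32 genes and the other 21 held 11 to 22, with a median of 17 in both. Apart from 2 nuclei with 28 and 32 genes, Arc-high nuclei were thus within the range of the Arc-low ones. Arc is itself 1 of the 60 genes, so every Arc-high nucleus counts it by the way it was chosen.

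**Figure D5:**
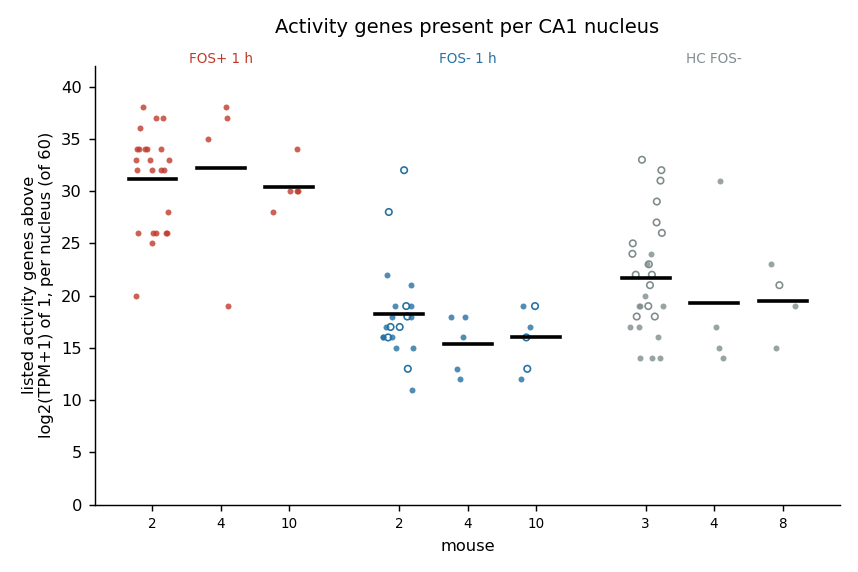
Number of 60 listed activity genes with a log2(TPM+1) above 1 in each CA1 nucleus, by mouse and group; bars are means and open circles are FOS- nuclei with Arc above 2.5. FOS+ nuclei of the 3 mice centre near 30 to 32 genes and FOS- nuclei near 15 to 18.

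The FOS difference was set beside that of the other excitatory types at 1 h, with nuclei of subiculum (11 FOS+, 13 FOS-, the same 3 mice), CA3 (13 and 10, mice 4 and 10) and dentate gyrus (DG, 26 and 27, 1 other mouse). Over the effector list the within-mouse median was 2.27, 2.97 and 1.79 in CA1, 1.07, 1.32 and 1.02 in subiculum, 1.43 and 0.85 in CA3 and 5.04 in DG. Each CA1 mouse lay above each subiculum and CA3 set and below DG. Over the IEG transcription factors the medians were 1.48, 1.41 and 1.01 in CA1, 0.75, 0.95 and 0.58 in subiculum, 0.69 and 0.27 in CA3 and 1.95 in DG. The filter on low counts was that of CA1, and the order was not tested.

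Gene by gene, edgeR's test of the difference between FOS effects over 22148 genes called 0 genes for CA1 against subiculum (1678 at an unadjusted p under 0.05), 0 against CA3 (940) and 1 against DG (384). DESeq2 called 788, 416 and 404. The 1 gene was Snhg11, a small nucleolar RNA host gene, 0.00452% of those tested. In CA1 it averaged 12.75, 12.81 and 12.98 in FOS+ and 12.36, 12.72 and 13.04 in FOS- nuclei, with overlap. The 1 DG mouse had 4.65 (FOS+) and 8.83 (FOS-), which gave a difference of effects of 3.47 (standard error 0.29, edgeR adjusted p = 2.0e-05). Since DG nuclei of both kinds came from 1 mouse, the p rests on a spread assumed to be that of the other sums, holds no spread of the DG effect between mice, and compares this 1 mouse with the CA1 mice rather than the cell types.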

How the data were processed

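Single hippocampal nuclei were stained, sorted one to a well and made into Smart-seq2 libraries. The authors trimmed the reads and aligned them with RSEM and Bowtie to mm10 with the Ensembl annotation. They deposited expected counts per gene and nucleus, and a table of log2(TPM+1). Counting is not stated to use strand.

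Nuclei with the same exposure, date and mouse number in the labels were taken as 1 animal. Nuclei with at least 4000 genes above a log2 of 1 were kept. Expected counts were rounded, summed over at least 2 nuclei per mouse and group, and tested in R 4.3.3 with edgeR 4.0.16 (TMM scaling, filterByExpr, quasi-likelihood test, Benjamini-Hochberg, threshold 0.05). CA1 FOS+, FOS- and HC sums shared 1 fit, with a common dispersion of 1.62; the 6 FOS+ and FOS- sums held 3153889 to 33634638 counts. Rows without values were left out (30 genes in counts, 23 in log2). DESeq2 1.42.0, limma 3.58.1 and 24 planned settings were alternatives; DESeq2 without Arc-high nuclei and limma weighted by nuclei were chosen after seeing the data. Scripts were tested on simulated data.

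The labels place the FOS+ and FOS- nuclei of each mouse number in 1 animal. Their deviations correlated at 0.0767, 0.0533 and 0.0359 in mice 2, 4 and 10 (-0.0574 to -0.00484 between mice).

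Named genes were Fos and Arc, up to 4 members per list by smallest edgeR p plus Egr1, Nr4a1, Npas4, Bdnf, Homer1 and Junb, the 8 separated genes with the smallest p each way (gene models apart, 136 higher and 119 lower), and genes past an interaction test. A few genes that meet this rule are not reported here. Others named from the lists were chosen after their values were seen. The nuclei and lists were chosen with earlier results of these data known. Where nothing says how samples were split, p-values measure the spread between these mice only.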

Additional observations from a re-analysis of the deposited data

Results flagged for a closer look

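Snhg11 was picked out by the comparison of FOS effects between CA1 and the 1 DG mouse. FOS+ minus FOS- was 3.47 higher on the log2 scale in CA1 than in DG (edgeR test of the difference of effects, adjusted p = 2.0e-05). Within CA1 its fold change was 0.17 and did not pass, and it was near 0 in subiculum and CA3 (both 0.01). With 1 DG mouse the p holds no spread of the DG effect between mice, and a difference between cell types is not established. Leaving out any other mouse gave 3.38 to 3.59. The cause was not tested.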

How the results depend on the processing

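Of 61 named genes, 59 kept their direction under every alternative that gave them a value (22 each, but 14 to 21 for 10 genes that were not tested in some); Nf1 turned to -0.12 under weighted limma, and Snhg11 to -0.010 (edgeR), -0.059 (limma) and -0.033 (DESeq2) without Arc-high FOS- nuclei. edgeR called 0 genes under every setting. DESeq2 called 222, and 220 without Arc-high nuclei (127 shared), and limma weighted by nuclei 4, which were Nr4a2, 1700016P03Rik, Bdnf and Dusp1. On simulated counts both tools called more unchanged than changed genes. That simulation gave all sums the same spread whatever their number of nuclei, so it cannot judge weights by nuclei. For the interactions DESeq2 called 788, 416 and 404. A fit that took the mouse as replicate block called 0 of 13458 genes (357 unadjusted), and the block changed no other call. Direction within each mouse, which pairs FOS+ and FOS- nuclei, gave 1875 higher and 1780 lower genes, and leaving out mouse 2, 4 or 10 gave 2271, 2681 and 1911 separated as higher and 2147, 1985 and 2626 as lower, in 2 against 2 mice.

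Median log2 fold changes of lists moved as follows. IEG transcription factors had 3.03 without Arc-high nuclei, 2.12 on FOS+ and FOS- sums only, 2.79 without a filter, 4.19 with block and Arc filter, 1.66 thinned to 300000 counts, 1.54 with limma, 1.58 with limma and Arc filter, 1.27 with limma without a filter, 3.07 with DESeq2 and Arc filter and 1.44 with weighted limma. Effectors had 3.68 with limma at a pseudocount of 0.1. Feedback inhibitors had 2.29 with block and Arc filter and, with limma, 0.63, 0.28 (Arc filter), 0.85 (pseudocount 0.1), 0.50 (no filter) and 0.68 (weighted). Chromatin enzymes had 1.05 (Arc filter), 1.03 (block), 1.15 (block and Arc filter), 1.02 (limma, 0.1) and 1.09 (DESeq2, Arc filter). Upstream regulators had -0.33 (block), -0.21 (thinned) and, with limma, -0.17, -0.17 (Arc filter), -0.24 (0.1) and -0.15 (no filter). Glutamate receptors had 0.26 (block and Arc filter) and 0.24 (limma, 0.1). Potassium channels had 0.45 (Arc filter), 0.27 (DESeq2), 0.27 (its size factors in edgeR), 0.55 (block), 0.54 (block and Arc filter), 0.23 (thinned), 0.19 (limma), 0.38 (limma, Arc filter), 0.15 (limma, no filter) and 0.44 (DESeq2, Arc filter). Respiratory chain genes had 0.56 (block and Arc filter), 0.51 (limma, 0.1) and 0.050 (weighted limma), and chaperones 0.61 (limma, 0.1) and 0.58 (weighted limma). The causes were not tested.

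Without 1 mouse the list medians ran from 1.85 to 2.88 (2.82 without HC mouse 4; IEG transcription factors), 1.59 to 2.5 (effectors), 1.09 to 1.49 (feedback), 0.63 to 0.91 (chromatin), -0.13 to 0.26 (upstream), -0.15 to 0.43 (glutamate), 0.28 to 0.52 (potassium), 0.10 to 0.33 (respiratory), 0.09 to 0.20 (chaperones) and 0.16 to 0.21 (splicing). A DG value without its 1 mouse could not be fitted.

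The limits are 3 mice per group, 4 to 6 nuclei per set in mice 4 and 10, and the field markers of mice 4 and 10. All nuclei held over 300000 counts, so thinning dropped none; detection of genes with few counts is limited by depth, and 0 of 32 nuclei allows a share of up to 10.9% (exact 95% binomial interval).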
